A study of Mus musculus with 92 samples.

Results

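The cGAS-STING and PYHIN DNA sensors described here are 6 genes of 29956 named in the deposited table, chosen by symbol and each found there once: Mb21d1 (cGAS, also Cgas), Tmem173 (STING, also Sting1), Aim2, Ifi203, Ifi204 and Ifi205. The study followed mouse myeloid cells made from progenitors that an estrogen-regulated Hoxb8 (ER-Hoxb8) keeps dividing, and set them beside primary bone marrow cells and microglia. It also removed Adar, the gene of the RNA-editing enzyme ADAR1, from ER-Hoxb8 cells and treated the resulting macrophages with baricitinib, an inhibitor of the kinases JAK1 and JAK2. Bulk RNA-seq from a low-input library kit gave 92 libraries in 25 groups.

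cGAS binds double-stranded DNA in the cytosol and makes the cyclic dinucleotide cGAMP, which binds STING at the endoplasmic reticulum and leads through the kinase TBK1 and the factor IRF3 to interferon. AIM2, a PYHIN protein, binds DNA with its HIN domain and the adaptor ASC with its pyrin domain, and so assembles an inflammasome that activates caspase-1. Ifi203, Ifi204 and Ifi205 encode PYHIN (p200) proteins of an interferon-inducible cluster, and the Ifi204 product has been placed upstream of STING. Loss of ADAR1 lets the RNA sensor MDA5 respond to the cell's own double-stranded RNA and start interferon production, and the interferon receptor signals through JAK1.

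Cells of the FVB background were used throughout. BM progenitors (3 libraries, depleted of lineage-positive cells) and BM monocytes (3, magnetic isolation) came from wild-type marrow, and BMD macrophages (3) were grown from marrow in M-CSF for 7 days. ER-Hoxb8 progenitors (3), cells at day 4 of differentiation (3) and ER-Hoxb8 macrophages (3, 7 days of M-CSF) came from marrow of Cas9 mice. They carried the ER-Hoxb8 retrovirus, as selected populations and not single clones, with beta-estradiol and GM-CSF in the progenitor medium. The paper describes 3 biologically independent lines for this comparison. Microglia-like cells (MLCs) were bone marrow derived (BMD MLCs, 6) or ER-Hoxb8 derived (ER-Hoxb8 MLCs, 6, in library series GFPHox, replicates 1 to 3, and WTHox, replicates 4 to 6), injected into the brain of newborn Csf1r-/- pups, whose brain lacks microglia of its own, and sorted on CD45 and CD11B weeks later. Microglia (9, replicates 8 and 9 named YSWT) came from uninjected wild-type FVB mice, so brain cells differ from cultured cells in host, age and sorting as well as in origin. For the Adar1 knockout (KO), sorted pools of Cas9 het ER-Hoxb8 progenitors carried sgRNA 1 (3 progenitor, 3 macrophage libraries), sgRNA 2 (3 and 5) or a non-targeting control guide (NTC, 3 and 3), and a pool holds cells with different edits. The baricitinib libraries were macrophages at day 7, NTC and Adar1 KO (sgRNA 1), given the drug with each change of medium at 0, 0.0006, 0.016, 0.4 and 10 µM, with 3, 3, 4, 4 and 3 NTC and 3, 3, 3, 3 and 4 KO libraries, and were sequenced at another provider. The sample titles give the third dose as 0.016 µM and the protocol text gives it a different value, so that dose is named by its title.

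Values are log2 CPM (read counts scaled to library size), and a log2FC is a difference of group means on that scale. The lowest value in a library showed which libraries were normalized together, and groups were compared within such a set alone: the marrow and early ER-Hoxb8 groups (33.2 to 52.4 M reads a library), the macrophage, MLC and microglia groups (9.48 to 35.6 M), NTC and sgRNA 1 cells (22.4 to 34.3 M), sgRNA 2 cells (17.2 to 28.5 M) and the baricitinib macrophages (6.16 to 32.7 M). NTC macrophage replicate 2 has a lowest value that no other library shares, so it was kept out of every fit and its value is given beside the others. Each set was fitted with limma across all genes that passed a filter on low values, and a gene was called at an adjusted p (Benjamini-Hochberg) below 0.05. All 6 members passed that filter except Ifi205 in the NTC, sgRNA 1 and sgRNA 2 sets, where 5 of 6 were tested. A value at or below 3 reads in its library is named as such and read as an upper bound, which covers counting error only, since PCR reads are not independent molecules. The p-values reflect the spread between these libraries, and comparisons that share a control group are not independent of one another. The paper describes the baricitinib replicates as separate differentiations and states no separate edited pool for each library of a guide. A difference between edited pools and the effect of a guide therefore cannot be told apart. Values after ± are SDs over libraries, and neighbours in an order of levels are said to lie within their spread when their means differ by no more than the larger SD.

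Several libraries stood apart from their groups. Adar1 KO at 0.4 µM, replicate 2, read 10.58 for the interferon gene Isg15 against 1.80 and 3.37 in replicates 1 and 3, and its median correlation with its group was 0.89 against 0.937 and 0.938. Microglia replicate 8 had a median correlation of 0.705 with its group and summed levels of 39.8 CPM for 4 neuron markers, 628 CPM for 3 oligodendrocyte markers and 264 CPM for 3 astrocyte markers, each the highest of the 9 libraries. ER-Hoxb8 MLC replicate 6 held 497 CPM of 4 T and NK cell markers, the highest of its group. ER-Hoxb8 progenitor replicate 3 held 2363 CPM of 4 progenitor markers, led by Mpo, against 54.1 and 26.1 in replicates 1 and 2. ER-Hoxb8 macrophage replicate 3 had a median correlation of 0.882 with its group against 0.925 and 0.931. BMD macrophage replicate 3 was at 0.869 against 0.916 and 0.894, and BMD MLC replicate 3 was at 0.834. All ER-Hoxb8 MLCs (0.716 to 0.815) and ER-Hoxb8 progenitors (0.812 to 0.854) were loosely alike within their groups. Calls that rest on the first 2 of these libraries are given with and without them, and any other library is named where leaving it out changes a call.

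The PYHIN genes lie close together on chromosome 1 and share long stretches of near-identical sequence, so reads can be split between Ifi203, Ifi204, Ifi205 and their neighbours in ways the table does not show, and a level of 1 of them is uncertain to that extent. RefSeq promoter windows (build GRCm38.p6, 250 bases before each start and 50 from it) were found for 4 of the 6 members, in 5 windows: Mb21d1, Aim2 and Ifi205 with 1 each and Ifi203 with 2. The core of the interferon-stimulated response element, GAAANNGAAA, was searched on both strands and occurs in 1131 of 32851 windows of this length (3.44%). It was present in 1 Ifi203 window, 35 bases before the start, and at 2 places of the Ifi205 window, 134 bases before the start and, on the opposite strand, at base 24 after it, and in none of the windows of Mb21d1 and Aim2. The gamma-activated site TTCNNNGAA, in 2726 windows (8.30%), was in none of the 5. The 2 windows with a match are shown, and Mb21d1, which like Ifi203 and Ifi205 was called higher in MLCs than in macrophages in both such comparisons, had none. Each is given 5′ to 3′ on the minus strand with the matches in capitals, Ifi203 at chr1:173942443-173942742 and Ifi205 at chr1:174031706-174032005. A match is a run of letters, not a site or a cause.
Ifi203: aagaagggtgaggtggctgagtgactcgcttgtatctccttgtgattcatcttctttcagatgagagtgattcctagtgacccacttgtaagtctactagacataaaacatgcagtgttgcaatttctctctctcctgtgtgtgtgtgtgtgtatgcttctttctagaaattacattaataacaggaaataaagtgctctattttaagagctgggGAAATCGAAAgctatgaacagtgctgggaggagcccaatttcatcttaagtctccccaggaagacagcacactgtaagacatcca
Ifi205: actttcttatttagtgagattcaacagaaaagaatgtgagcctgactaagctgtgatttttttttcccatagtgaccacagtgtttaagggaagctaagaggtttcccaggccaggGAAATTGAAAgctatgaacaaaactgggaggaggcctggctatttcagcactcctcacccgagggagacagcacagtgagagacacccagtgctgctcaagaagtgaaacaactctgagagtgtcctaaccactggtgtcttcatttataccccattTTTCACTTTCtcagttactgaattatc

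Adar, the gene aimed at by the guides, was measured in every library, but a guide makes small insertions and deletions, so its mRNA level does not check the genotype. In the marrow and early ER-Hoxb8 groups Adar read 5.36, 5.11 and 5.63 in BM progenitors, 6.32, 6.21 and 5.56 in BM monocytes, 4.69, 5.81 and 5.10 in ER-Hoxb8 progenitors and 5.69, 5.56 and 5.28 in ER-Hoxb8 day 4 cells, and the 4 ranges overlapped. In the macrophage and brain groups it read 5.72, 5.56 and 6.29 in BMD macrophages, 5.83, 5.97 and 4.37 in ER-Hoxb8 macrophages, 3.24 to 5.74 (median 4.73) in BMD MLCs, 4.11 to 6.08 (median 5.19) in ER-Hoxb8 MLCs and 0.87 to 5.63 (median 3.43) in Microglia, lowest in Microglia. Progenitors read 4.20, 3.42 and 4.28 with NTC, 4.36, 4.23 and 4.24 with sgRNA 1 and 4.35, 4.56 and 4.36 with sgRNA 2. Macrophages read 5.73 and 5.67 with NTC (left-out replicate 2, 5.86), 6.96, 7.15 and 7.01 with sgRNA 1 and 7.02, 7.00, 7.02, 7.03 and 6.99 with sgRNA 2. Adar, itself an interferon-regulated gene, was higher with sgRNA 1 than with NTC in macrophages (log2FC 1.34, SE 0.21, adjusted p 0.000976) and was not called in progenitors (0.31, adjusted p 0.927). Under baricitinib NTC macrophages read 5.12, 4.94 and 4.69 at 0 µM, 4.66, 5.04 and 4.81 at 0.0006 µM, 4.31, 4.58, 4.40 and 4.34 at 0.016 µM, 4.50, 4.22, 4.29 and 3.92 at 0.4 µM and 3.70, 3.64 and 3.22 at 10 µM. KO macrophages read 7.42, 6.52 and 6.37 at 0 µM, 5.90, 5.94 and 6.21 at 0.0006 µM, 6.25, 5.90 and 6.37 at 0.016 µM, 4.12, 7.38 and 4.21 at 0.4 µM and 1.55, 2.15, 2.91 and 2.03 at 10 µM. KO exceeded NTC at 0 µM (log2FC 1.85, SE 0.48, adjusted p 0.00513) and was below it at 10 µM (log2FC -1.36, SE 0.45, adjusted p 0.0148).

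**Figure D1:**
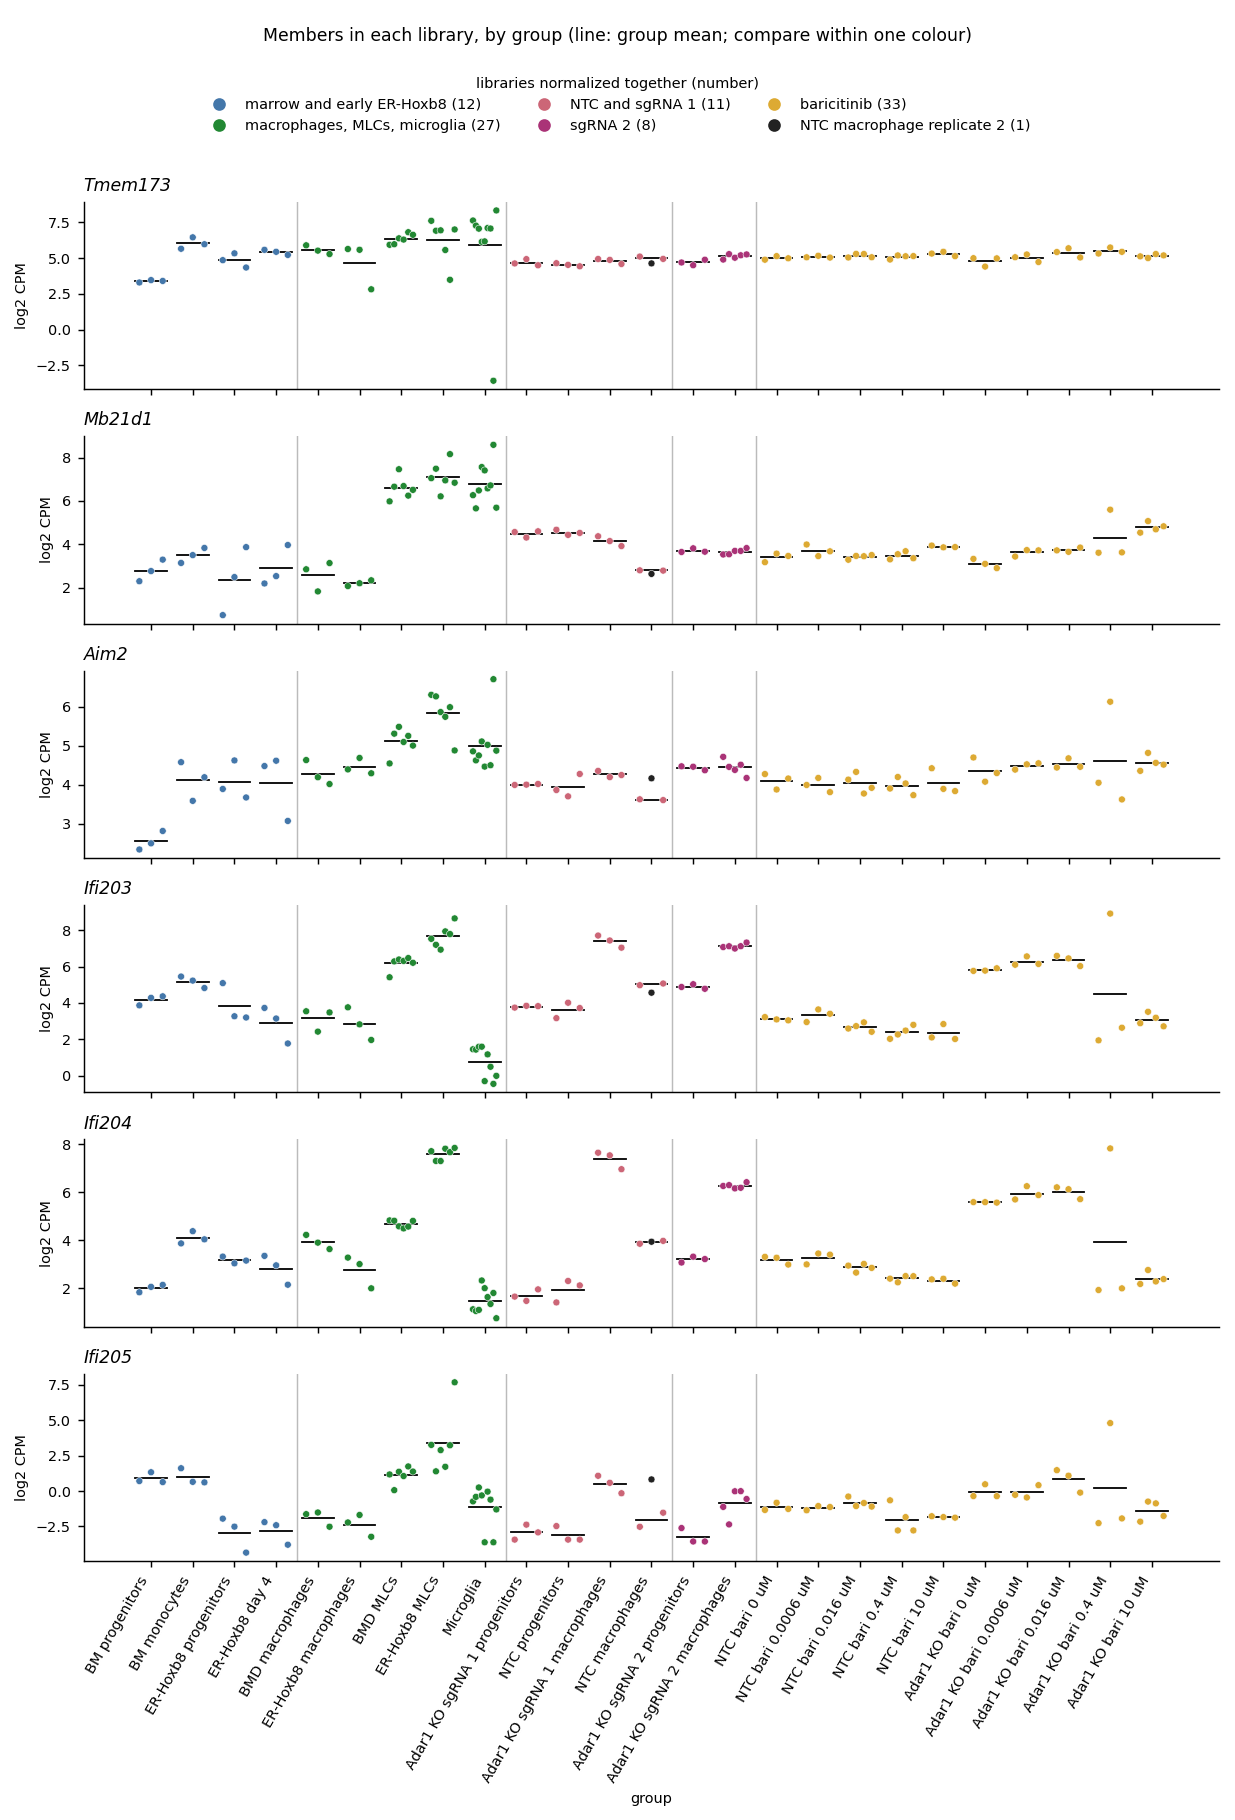
log2 CPM of each of the 6 members in every library of the 25 groups, with the group mean as a line and one colour for each set of libraries normalized together. Ifi203 and Ifi204 sit near the bottom of the macrophage and brain set in Microglia and at its top in ER-Hoxb8 MLCs.

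The marrow and early ER-Hoxb8 groups address how the sensors differ between primary and ER-Hoxb8 progenitors and along the way to monocytes. Mb21d1, the cGAMP synthase, read 2.29, 2.76 and 3.29 in BM progenitors, 3.14, 3.50 and 3.83 in BM monocytes, 0.73, 2.48 and 3.87 in ER-Hoxb8 progenitors and 2.19, 2.53 and 3.96 in ER-Hoxb8 day 4 cells, so the 4 ranges overlapped. Its means ran from 3.49 ± 0.35 in BM monocytes through 2.89 ± 0.94 at day 4 and 2.78 ± 0.50 in BM progenitors to 2.36 ± 1.57 in ER-Hoxb8 progenitors, each neighbour within its spread. Tmem173, the cGAMP receptor, read 3.29, 3.46 and 3.40 in BM progenitors, 5.65, 6.45 and 5.97 in BM monocytes, 4.85, 5.33 and 4.34 in ER-Hoxb8 progenitors and 5.58, 5.44 and 5.22 in ER-Hoxb8 day 4 cells, with BM progenitors below every other library. The order was BM monocytes (6.02 ± 0.40), day 4 (5.41 ± 0.18), ER-Hoxb8 progenitors (4.84 ± 0.50) and BM progenitors (3.38 ± 0.08), with each step beyond the larger SD. Aim2, the inflammasome sensor, read 2.34, 2.49 and 2.81 in BM progenitors, 4.57, 3.58 and 4.19 in BM monocytes, 3.89, 4.62 and 3.67 in ER-Hoxb8 progenitors and 4.48, 4.61 and 3.07 in ER-Hoxb8 day 4 cells. BM monocytes (4.12 ± 0.50), ER-Hoxb8 progenitors (4.06 ± 0.50) and day 4 cells (4.05 ± 0.86) lay within their spread, above BM progenitors (2.55 ± 0.24), the 1 group apart for Aim2.

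Among the other PYHIN members, Ifi203 read 3.87, 4.28 and 4.37 in BM progenitors, 5.45, 5.23 and 4.82 in BM monocytes, 5.09, 3.27 and 3.20 in ER-Hoxb8 progenitors and 3.73, 3.14 and 1.77 in ER-Hoxb8 day 4 cells. BM monocytes (5.17 ± 0.32) led, and BM progenitors (4.17 ± 0.27), ER-Hoxb8 progenitors (3.85 ± 1.07) and day 4 (2.88 ± 1.00) followed within their spread. Ifi204 read 1.83, 2.06 and 2.14 in BM progenitors, 3.87, 4.38 and 4.04 in BM monocytes, 3.32, 3.04 and 3.15 in ER-Hoxb8 progenitors and 3.35, 2.96 and 2.15 in ER-Hoxb8 day 4 cells, with BM progenitors below every other library. Its order was BM monocytes (4.10 ± 0.26), ER-Hoxb8 progenitors (3.17 ± 0.14), day 4 (2.82 ± 0.61) and BM progenitors (2.01 ± 0.16), and the middle pair lay within its spread. Ifi205 read 0.70, 1.32 and 0.63 in BM progenitors and 1.60, 0.65 and 0.61 in BM monocytes (means 0.88 ± 0.38 and 0.95 ± 0.56, within their spread). In ER-Hoxb8 cells Ifi205 was near its limit of detection, at -1.95 and -2.51 in progenitors and -2.19 and -2.41 at day 4, with replicate 3 of each at or below 3 reads.

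BM monocytes were compared with BM progenitors, and more Tmem173, Ifi204 and Aim2 was called: 3 of 6 members were called, all higher, against 13.7% of the genes tested. Tmem173 was 6.22-fold higher (log2FC 2.64, SE 0.29, adjusted p 0.000489, no overlap), Ifi204 4.23-fold (log2FC 2.08, SE 0.34, adjusted p 0.00327, no overlap) and Aim2 2.97-fold (log2FC 1.57, SE 0.44, adjusted p 0.0382, no overlap). Ifi203 did not overlap between the groups and was not called (1.00, adjusted p 0.256), nor was Mb21d1 (0.71, adjusted p 0.537). Of the AIM2 inflammasome genes 5 of 7 rose (median log2FC 1.75 against -0.09 for all genes), led by the caspase genes Casp1 (1.91) and Casp4 (1.87). Of the other PYHIN genes 3 of 9 rose (AI607873 3.68, Ifi202b 3.63, Mnda 3.40), and of the genes that remove DNA or cGAMP 3 of 10 (Smpdl3a 2.83, Samhd1 2.33, Trex1 2.31), while none of 8 signalling genes such as Tbk1 and Irf3 was called. The reference interferon genes gave 2 of 10 higher. The call for Aim2 ended when any 1 of the 6 libraries was left out (adjusted p 0.052 to 0.138), and with no filter on low values (1.57, adjusted p 0.057). Neutrophil markers (6 genes, led by Ngp) summed to 288, 9697 and 4270.4 CPM in BM progenitors and 479.9, 9091 and 4082 CPM in BM monocytes, T and NK cell markers (4, led by Nkg7) to 199, 403 and 406 and 75.9, 94.7 and 143, and their part in the result was not tested. In bulk RNA, a change in the share of cells and a change in RNA per cell cannot be told apart, here or in the comparisons that follow.

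ER-Hoxb8 progenitors also differed from BM progenitors, the primary cells they stand in for: 4 of 6 members were called (3 higher, 1 lower) against 25.6% of genes. Tmem173 (log2FC 1.46, SE 0.29, adjusted p 0.00334, no overlap), Aim2 (log2FC 1.51, SE 0.44, adjusted p 0.0265, no overlap) and Ifi204 (log2FC 1.16, SE 0.34, adjusted p 0.0265, no overlap) were higher. Ifi205 was lower (log2FC -3.82, SE 0.71, adjusted p 0.00215, no overlap), a size that depends on the added prior count because of the library at or below 3 reads. The pyroptosis gene Ninj1 (3.39) led 5 of 7 inflammasome genes that rose, Ikbke, a kinase related to TBK1, rose (2.53, 1 of 8 signalling genes), Smpdl3a, which degrades cGAMP, fell (-5.22), and 1 of 9 other PYHIN genes rose (AI607873 3.81). Aim2 lost its call without any 1 of BM progenitor replicates 1, 2 and 3 and ER-Hoxb8 progenitor replicates 1 and 2 (adjusted p 0.051 to 0.0873), and Ifi204 without any 1 of BM progenitor replicates 1, 2 and 3 and ER-Hoxb8 progenitor replicate 1 (0.0634 to 0.0863). Neutrophil markers summed to 22.1, 38.1 and 11.7 CPM in ER-Hoxb8 progenitors, beside the BM progenitor values above, and their part in the result was not tested.

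Day 4 cells were set beside ER-Hoxb8 progenitors to see the first days of differentiation, and here limma called 0 of 6 members and 0% of the genes tested, with 0 members and 1135 genes at an unadjusted p below 0.05. Libraries of these groups with the same replicate number correlated (r 0.23 to 0.43), and with a replicate block limma also called 0 genes. Within each such pair Tmem173 and Mb21d1 were higher and Ifi203 lower at day 4, and the other members went both ways. Against BM monocytes, their primary counterpart, day 4 cells were lower in the p200 members: 3 of 6 members were called, all lower, against 17.5% of genes. These were Ifi203 (log2FC -2.29, SE 0.56, adjusted p 0.0152, no overlap), Ifi204 (log2FC -1.28, SE 0.34, adjusted p 0.023, no overlap) and Ifi205 (log2FC -3.75, SE 0.71, adjusted p 0.00346, no overlap, 1 of 3 day 4 libraries at or below 3 reads). Tmem173 (-0.61, adjusted p 0.188), Mb21d1 (-0.59, adjusted p 0.632) and Aim2 (-0.06, adjusted p 0.948) were not called. In the rest of the cluster 6 of 9 other PYHIN genes fell (Ifi202b -3.81, Mnda -3.18, Gm16340 -2.49; median log2FC -2.32 against -0.01 for all genes), with 1 reference interferon gene higher (Oas1a 2.70) and 1 lower (Mx1 -3.72). Ifi203 was not called without any 1 of BM monocyte replicates 1 and 2 and day 4 replicate 3 (adjusted p 0.0521 to 0.0605), and Ifi204 without any 1 of BM monocyte replicates 2 and 3 and day 4 replicate 3 (0.0581 to 0.0928). Neutrophil markers stood at 39.9, 55.5 and 47.6 CPM at day 4, below the BM monocytes, and their part in the result was not tested.

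The macrophage, MLC and microglia groups address whether ER-Hoxb8 cells end up like primary macrophages in culture and like microglia in the brain. Mb21d1 read 2.84, 1.82 and 3.13 in BMD macrophages, 2.07, 2.20 and 2.33 in ER-Hoxb8 macrophages, 5.98 to 7.46 (median 6.58) in BMD MLCs, 6.21 to 8.16 (median 7.00) in ER-Hoxb8 MLCs and 5.65 to 8.59 (median 6.58) in Microglia. Every brain library lay above every cultured macrophage: ER-Hoxb8 MLCs (7.11 ± 0.66), Microglia (6.77 ± 0.94) and BMD MLCs (6.59 ± 0.50) lay within their spread, as did BMD (2.60 ± 0.69) and ER-Hoxb8 macrophages (2.20 ± 0.13). Tmem173 read 5.89, 5.52 and 5.28 in BMD macrophages, 5.63, 5.58 and 2.82 in ER-Hoxb8 macrophages, 5.93 to 6.81 (median 6.34) in BMD MLCs, 3.48 to 7.61 (median 6.93) in ER-Hoxb8 MLCs and -3.57 to 8.33 (median 7.07) in Microglia. With all libraries it had no order beyond its spread, from BMD MLCs (6.33 ± 0.35), ER-Hoxb8 MLCs (6.25 ± 1.51) and Microglia (5.91 ± 3.62) to BMD (5.56 ± 0.31) and ER-Hoxb8 macrophages (4.68 ± 1.61), and 3 single libraries lay far from their groups: Microglia replicate 8 at or below 3 reads, ER-Hoxb8 MLC replicate 5 at 3.48 and ER-Hoxb8 macrophage replicate 3 at 2.82. The other Microglia libraries read 6.14 to 8.33 for Tmem173, above every cultured macrophage, so the place and SD of Microglia rested on replicate 8. Aim2 read 4.63, 4.19 and 4.01 in BMD macrophages, 4.39, 4.68 and 4.29 in ER-Hoxb8 macrophages, 4.54 to 5.48 (median 5.17) in BMD MLCs, 4.88 to 6.30 (median 5.92) in ER-Hoxb8 MLCs and 4.46 to 6.70 (median 4.85) in Microglia, with the highest value in Microglia replicate 8. Its order was ER-Hoxb8 MLCs (5.84 ± 0.52), then, within their spread, BMD MLCs (5.11 ± 0.33), Microglia (4.99 ± 0.68), ER-Hoxb8 macrophages (4.45 ± 0.20) and BMD macrophages (4.28 ± 0.32). The other Microglia libraries read 4.46 to 5.11 for Aim2, so the SD of Microglia in this run rested on replicate 8.

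Ifi203 read 3.54, 2.42 and 3.48 in BMD macrophages, 3.76, 2.82 and 1.96 in ER-Hoxb8 macrophages, 5.41 to 6.47 (median 6.30) in BMD MLCs, 6.93 to 8.65 (median 7.66) in ER-Hoxb8 MLCs and -0.45 to 1.59 (median 1.17) in Microglia. ER-Hoxb8 MLCs (7.68 ± 0.61) stood above BMD MLCs (6.18 ± 0.39) with no overlap, BMD (3.15 ± 0.63) and ER-Hoxb8 macrophages (2.85 ± 0.90) lay within their spread, and Microglia (0.77 ± 0.85) were lowest. Ifi204 read 4.22, 3.90 and 3.63 in BMD macrophages, 3.28, 3.01 and 2.00 in ER-Hoxb8 macrophages, 4.49 to 4.83 (median 4.69) in BMD MLCs, 7.30 to 7.84 (median 7.69) in ER-Hoxb8 MLCs and 0.75 to 2.33 (median 1.35) in Microglia. Each step of its order exceeded the larger SD: ER-Hoxb8 MLCs (7.60 ± 0.24), BMD MLCs (4.68 ± 0.15), BMD macrophages (3.92 ± 0.30), ER-Hoxb8 macrophages (2.76 ± 0.67) and Microglia (1.46 ± 0.51). Ifi205 read 0.06 to 1.73 (median 1.26) in BMD MLCs and 1.39 to 7.66 (median 3.05) in ER-Hoxb8 MLCs, the highest being replicate 6. In cultured macrophages Ifi205 was near its limit, at -1.63 and -1.51 (BMD) and -2.22 and -1.69 (ER-Hoxb8) with replicate 3 of each at or below 3 reads, and in Microglia it was at or below 3 reads in 2 of 9 libraries, with a median of -0.61 and a highest value of 0.25. By mean, ER-Hoxb8 MLCs (3.35 ± 2.25) and BMD MLCs (1.12 ± 0.57) lay within their spread, above Microglia and both macrophage groups.

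Cultured ER-Hoxb8 and BMD macrophages, the in vitro comparison, gave 0 of 6 members called by limma against 1.97% of genes, with 1 member and 1086 genes at an unadjusted p below 0.05. That member, Ifi204, was lower in ER-Hoxb8 macrophages without overlap (-1.16, adjusted p 0.166), and the interval of the Ifi203 difference was -1.48 to 0.88. Smpdl3a, which degrades cGAMP, fell by 8.24 on the log2 scale and Enpp1, the main cGAMP hydrolase outside cells, by 2.83, the 2 called of 10 removal genes, and no other PYHIN gene of 10 was called. Macrophage markers (5 genes, led by Cd68) summed to 8895, 6649 and 8049.7 CPM in BMD and 7839, 6583 and 9254 CPM in ER-Hoxb8 macrophages, so those defining markers were present in both.

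BMD MLCs from the brain read higher than BMD macrophages from culture in Mb21d1, Ifi203 and Ifi205: 3 of 6 members were called, all higher, against 30.7% of genes. Mb21d1 was 15.9-fold higher (log2FC 3.99, SE 0.49, adjusted p 1.63e-06, no overlap), Ifi203 8.19-fold (log2FC 3.03, SE 0.50, adjusted p 6.66e-05, no overlap), and Ifi205 was higher from a group with 1 of 3 libraries at or below 3 reads (log2FC 3.01, SE 0.99, adjusted p 0.0234, no overlap). Aim2 (0.83, adjusted p 0.0906) and Ifi204 (0.76, adjusted p 0.0832) were not called, and without Microglia replicate 8, which enters the pooled spread, Aim2 was called (0.83, adjusted p 0.0175; 4 members and 37.9% of genes). Aim2 was also called with a replicate block (0.91, adjusted p 0.0332) and without the YSWT libraries (0.83, adjusted p 0.0196), and Tmem173 was not called (0.77, adjusted p 0.736). Of the other PYHIN genes 7 of 10 rose (median log2FC 2.54 against -0.01; BC094916 3.24, Pyhin1 2.99, Pydc3 2.96), the interleukin genes Il1b (7.32) and Il18 (3.03) led 4 of 7 inflammasome genes that rose, and 4 of 10 reference interferon genes rose and 1 fell (8 other PYHIN genes up, and 4 interferon genes up and 2 down, without Microglia replicate 8). Ifi205 was not called without BMD macrophage replicate 1 or replicate 3 (adjusted p 0.0565 to 0.106), nor on log2(CPM + 1) values (1.39, adjusted p 0.124). Neutrophil markers, led by Ngp, summed to 4434 to 32953 (median 29837) CPM in BMD MLCs and 16.1, 9.82 and 3.21 CPM in BMD macrophages, border macrophage markers (4, led by Mrc1) to 1492 to 2252 (median 1986) and 317, 250.4 and 217, and their part in the result was not tested.

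ER-Hoxb8 MLCs carried more cGAS and PYHIN transcript than ER-Hoxb8 macrophages, whose titles name a Cas9 donor that the MLC titles do not: 5 of 6 members were called, all higher, against 34.7% of genes. Ifi204 was 28.7-fold higher (log2FC 4.84, SE 0.33, adjusted p 2.9e-11, no overlap), Mb21d1 30.1-fold (log2FC 4.91, SE 0.49, adjusted p 2.93e-08, no overlap) and Ifi203 28.4-fold (log2FC 4.83, SE 0.50, adjusted p 4.48e-08, no overlap). Aim2 (log2FC 1.38, SE 0.37, adjusted p 0.00594, no overlap) and Ifi205 (log2FC 5.73, SE 0.99, adjusted p 9.87e-05, no overlap; without ER-Hoxb8 MLC replicate 6, 4.87, adjusted p 4.35e-05) were higher as well, the size for Ifi205 resting on the prior count, with 1 of 3 macrophage libraries at or below 3 reads, and Tmem173 was not called (1.57, adjusted p 0.444). All 10 other PYHIN genes rose (median log2FC 5.16 against -0.15; Pydc3 8.35, Gm4955 7.67, Gm16340 6.57), as did 8 of 10 reference interferon genes (median 4.98; Cxcl10 9.88) and the nucleic acid sensor Zbp1 (6.61). Lower were the signalling genes downstream of STING Ikbke (-4.14) and Irf3 (-3.33), among 3 of 8 called lower, and 7 of 14 trafficking genes (4 and 9 without Microglia replicate 8). Centring each library on its median moved the median of all genes from -0.15 to 0.06 and no member's call. Within series, GFPHox alone gave Ifi204 4.67, adjusted p 8.77e-09 and Aim2 1.69, adjusted p 0.00388, and WTHox alone gave 5.01, adjusted p 6.23e-09 and 1.08, adjusted p 0.0545. With replicate number as a block Tmem173 was called (1.94, adjusted p 0.0219). T and NK cell markers summed to 8.49 to 497 (median 47.4) CPM in ER-Hoxb8 MLCs and 1.21, 0.618 and 0.423 in ER-Hoxb8 macrophages (Cd3e at 0), neutrophil markers to 237 to 41079 (median 2056) and 37.8, 16.1 and 9.97, and their part in the result was not tested.

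The difference between these steps, from macrophage to MLC in ER-Hoxb8 and in BMD cells, was tested as an interaction, with 1 of 6 members called against 3.23% of genes. The ER-Hoxb8 macrophages and MLCs were not stated to come from 1 line or donor, so a donor difference and the effect of the brain cannot be told apart here. The step of Ifi204 was higher in ER-Hoxb8 cells (log2FC 4.08, SE 0.47, adjusted p 5.25e-06), the member whose product has been placed upstream of STING. The differences for Tmem173 (0.81, adjusted p 0.919), Mb21d1 (0.92, adjusted p 0.596), Aim2 (0.55, adjusted p 0.706), Ifi203 (1.79, adjusted p 0.184) and Ifi205 (2.72, adjusted p 0.366) were not called, so a larger step in 1 lineage was shown for Ifi204 alone of the 6. Among other PYHIN genes 6 of 10 were called in the same direction (median 3.66 against -0.20, which centring moved to -0.07; Pydc3 5.39), and of the reference interferon genes 4 of 10 (Cxcl10 9.19), which became 7 and 7 without Microglia replicate 8.

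Set beside Microglia, the brain's own macrophages, BMD MLCs were higher in the p200 members: 3 of 6 members were called, all higher, against 20.4% of genes. Ifi203 was 42.5-fold higher (log2FC 5.41, SE 0.37, adjusted p 1.82e-11, no overlap) and Ifi204 9.31-fold (log2FC 3.22, SE 0.25, adjusted p 1.51e-10, no overlap). Ifi205 was higher (log2FC 2.28, SE 0.74, adjusted p 0.0285, overlapping groups), and so without Microglia replicate 8 (1.97, adjusted p 0.048), but it lost its call without any 1 of BMD MLC replicates 1, 3, 5 and 6 and Microglia replicate 5 (adjusted p 0.0508 to 0.0629), without the YSWT libraries (1.91, adjusted p 0.0733), with a replicate block (1.94, adjusted p 0.0822) and on log2(CPM + 1) values (1.08, adjusted p 0.151). Mb21d1 differed by -0.18 (95% interval -0.94 to 0.57) and Aim2 by 0.13 (-0.45 to 0.70), and without Microglia replicate 8 by 0.05, adjusted p 0.945, and 0.34, adjusted p 0.275, neither called in either fit. Tmem173 went from 0.43, adjusted p 0.858, to -0.76, adjusted p 0.321, without Microglia replicate 8, so its sign rested on that library. Of the other PYHIN genes 8 of 10 were higher (median 3.55 against 0.06, which centring moved to -0.08; AI607873 6.18, Ifi202b 5.11, Mndal 4.67), as were 5 of 10 reference interferon genes, and Pycard, which encodes ASC, was lower (-1.79). Neutrophil markers summed to 406 to 5862 (median 1949.9) CPM in Microglia and 4434 to 32953 (median 29837) CPM in BMD MLCs, and their part in the result was not tested.

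ER-Hoxb8 MLCs, set beside the same Microglia libraries, were higher in each PYHIN member: 4 of 6 members were called, all higher, against 33.8% of genes. Ifi203 was 119.7-fold higher (log2FC 6.90, SE 0.37, adjusted p 1.88e-13, no overlap), Ifi204 70.6-fold (log2FC 6.14, SE 0.25, adjusted p 1.66e-15, no overlap) and Ifi205 also (log2FC 4.51, SE 0.74, adjusted p 2.63e-05, no overlap; without ER-Hoxb8 MLC replicate 6, 3.65, adjusted p 3.41e-05). Aim2 was higher with overlapping groups (log2FC 0.85, SE 0.28, adjusted p 0.0186), more so without Microglia replicate 8 (1.07, adjusted p 0.000186), and not with the WTHox series alone (0.55, adjusted p 0.251; GFPHox alone 1.16, adjusted p 0.0119). Mb21d1 was not called (0.34, adjusted p 0.509; without Microglia replicate 8 0.57, adjusted p 0.158), nor was Tmem173, at 0.34 with and -0.84, adjusted p 0.189, without Microglia replicate 8. All 10 other PYHIN genes (median 6.65 against -0.10; AI607873 7.90, Ifi202b 7.23, Mndal 6.72) and all 10 reference interferon genes tested (median 5.67; Cxcl10 8.36) were higher, with Zbp1 (7.54) among 3 of 13 other DNA sensors. Within series, Ifi203 and Ifi204 gave 6.45, adjusted p 5.42e-10, and 5.97, adjusted p 1.18e-11, in GFPHox, and 7.36, adjusted p 6.74e-11, and 6.31, adjusted p 4.46e-12, in WTHox. Neutrophil markers summed to 237 to 41079 (median 2056) CPM in ER-Hoxb8 MLCs and 406 to 5862 (median 1949.9) CPM in Microglia, T and NK cell markers to 8.49 to 497 (median 47.4) and 0.259 to 13.3 (median 4.95), and their part in the result was not tested.

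Between the MLC groups, which shared host and tissue, ER-Hoxb8 MLCs held more Ifi203 and Ifi204: 2 of 6 members were called, both higher, against 15.1% of genes. Ifi204 was 7.59-fold higher (log2FC 2.92, SE 0.27, adjusted p 2.26e-08, no overlap) and Ifi203 2.82-fold (log2FC 1.49, SE 0.41, adjusted p 0.013, no overlap). Aim2 (0.73, adjusted p 0.111) and Ifi205 (2.23, adjusted p 0.0643) were not called with all libraries and were called when Microglia replicate 8 left the pooled spread (Aim2 0.73, adjusted p 0.0211; Ifi205 2.23, adjusted p 0.0388). Aim2 was also called without ER-Hoxb8 MLC replicate 6 (adjusted p 0.0393) and Ifi205 without replicate 2 or replicate 4 of that group (0.0337 to 0.0363), while without replicate 6 Ifi205 came down to 1.37, adjusted p 0.167. Mb21d1 (0.53, adjusted p 0.416) and Tmem173 (-0.08, adjusted p 0.973) did not pass the test. Within series, Ifi204 gave 2.75, adjusted p 7.97e-06, in GFPHox and 3.09, adjusted p 2.97e-06, in WTHox, Ifi203 1.04, adjusted p 0.177, and 1.95, adjusted p 0.0108, so the Ifi203 call held in WTHox and not in GFPHox. Ifi205 was called in WTHox (3.07, adjusted p 0.0356) and not in GFPHox (1.38, adjusted p 0.264), and the difference between series was not tested. With both series Ifi205 was also called on log2(CPM + 1) values (1.91, adjusted p 0.0216), with centring (2.40, adjusted p 0.039), with a replicate block (2.23, adjusted p 0.0436) and without the YSWT libraries (2.23, adjusted p 0.0431), and Aim2 with the last pair of settings (0.73, adjusted p 0.0401; 0.73, adjusted p 0.0239). All 10 other PYHIN genes (median 2.96 against -0.22, which centring moved to -0.05; Gm4955 5.05, Pydc4 4.93, Pydc3 4.80) and all 10 reference interferon genes tested (median 3.66) were higher, with Ikbke (4.45) and Casp4 (2.13). Dendritic cell markers (5, led by Cd209a) summed to 5.06 to 195 (median 13.4) CPM in ER-Hoxb8 and 28.3 to 165 (median 78.9) in BMD MLCs, endothelial markers (3) to 44.4 to 90.6 (median 67.2) and 10.6 to 28.2 (median 22.8), neutrophil markers to 237 to 41079 (median 2056) and 4434 to 32953 (median 29837), and their part in the result was not tested.

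The guide experiment asks what loss of ADAR1 does to progenitors and to macrophages. Mb21d1 read 4.67, 4.43 and 4.52 in NTC and 4.56, 4.31 and 4.60 in sgRNA 1 progenitors, and 2.79 and 2.78 in NTC (left-out replicate 2, 2.63) and 4.37, 4.15 and 3.91 in sgRNA 1 macrophages. Both progenitor groups (NTC 4.54 ± 0.12, sgRNA 1 4.49 ± 0.16) lay within their spread, above sgRNA 1 macrophages (4.14 ± 0.23) and then NTC macrophages (2.79 ± 0.01, n = 2). Tmem173 read 4.64, 4.52 and 4.42 in NTC and 4.62, 4.93 and 4.49 in sgRNA 1 progenitors, and 5.11 and 4.94 in NTC (left out, 4.63) and 4.93, 4.87 and 4.59 in sgRNA 1 macrophages. NTC macrophages (5.02 ± 0.12) were highest, and sgRNA 1 macrophages (4.80 ± 0.19), sgRNA 1 progenitors (4.68 ± 0.22) and NTC progenitors (4.53 ± 0.11) followed within their spread. Aim2 read 3.86, 3.70 and 4.27 in NTC and 3.99, 4.00 and 4.02 in sgRNA 1 progenitors, and 3.62 and 3.60 in NTC (left out, 4.16) and 4.35, 4.19 and 4.24 in sgRNA 1 macrophages. For Aim2 the left-out library lay close to the sgRNA 1 macrophages, and the order was sgRNA 1 macrophages (4.26 ± 0.08), sgRNA 1 progenitors (4.00 ± 0.01) with NTC progenitors (3.94 ± 0.30) within their spread, and NTC macrophages (3.61 ± 0.01).

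Ifi203 read 3.16, 4.01 and 3.72 in NTC and 3.74, 3.84 and 3.82 in sgRNA 1 progenitors, and 4.98 and 5.07 in NTC (left out, 4.57) and 7.71, 7.44 and 7.04 in sgRNA 1 macrophages. Its order was sgRNA 1 macrophages (7.40 ± 0.34), NTC macrophages (5.02 ± 0.07) and, within their spread, sgRNA 1 (3.80 ± 0.05) and NTC progenitors (3.63 ± 0.43). Ifi204 read 1.41, 2.31 and 2.12 in NTC and 1.66, 1.48 and 1.96 in sgRNA 1 progenitors, and 3.86 and 3.98 in NTC (left out, 3.94) and 7.64, 7.53 and 6.96 in sgRNA 1 macrophages. It kept the same order by group, sgRNA 1 macrophages (7.38 ± 0.37), NTC macrophages (3.92 ± 0.08) and both progenitor groups (NTC 1.95 ± 0.47, sgRNA 1 1.70 ± 0.24) within their spread. Ifi205 was at or below 3 reads in all 6 progenitor libraries and in NTC macrophage replicate 1, and read -1.53 in NTC macrophage replicate 3, 0.82 in the left-out replicate 2 and 1.07, 0.58 and -0.16 in sgRNA 1 macrophages, with no test.

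**Figure D2:**
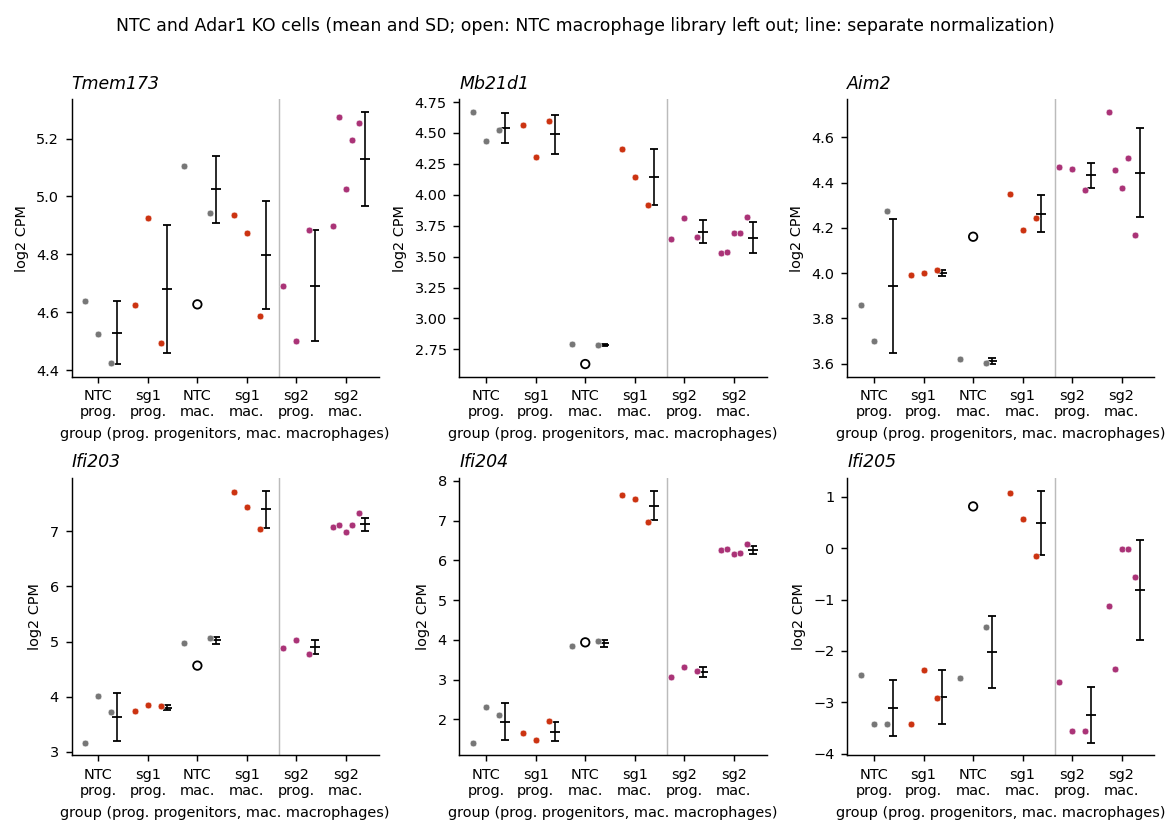
log2 CPM of each member in NTC, sgRNA 1 and sgRNA 2 progenitors and macrophages, with points for libraries, mean and SD for groups, and an open circle for the NTC macrophage replicate that was kept out. Ifi203 and Ifi204 in sgRNA 1 macrophages lie above every NTC macrophage, and the sgRNA 2 groups come from another set and are not to be compared with the rest.

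In progenitors the members gave no call with sgRNA 1 against NTC: limma called 0 of 5 members against 0.917% of genes, with 0 members and 732 genes at an unadjusted p below 0.05. The 95% intervals of log2FC were -0.38 to 0.28 for Mb21d1, -0.17 to 0.47 for Tmem173, -0.28 to 0.39 for Aim2, -0.29 to 0.63 for Ifi203 and -0.80 to 0.30 for Ifi204. Another PYHIN gene, 1 of 10, fell (Mnda -1.28), and none of 11 reference interferon genes was called.

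Macrophages with sgRNA 1 held more cGAS transcript, and more of the 3 PYHIN members tested, than NTC macrophages: 4 of 5 members tested were called, all higher, against 21.8% of genes. Ifi204 was 11-fold higher (log2FC 3.46, SE 0.28, adjusted p 6.26e-06, no overlap), Ifi203 5.18-fold (log2FC 2.37, SE 0.24, adjusted p 2.75e-05, no overlap), Mb21d1 2.56-fold (log2FC 1.35, SE 0.17, adjusted p 0.00014, no overlap) and Aim2 1.57-fold (log2FC 0.65, SE 0.17, adjusted p 0.0187, no overlap). Tmem173 was not called (-0.23, adjusted p 0.353; 95% interval -0.58 to 0.13). In the baricitinib set at 0 µM, sgRNA 1 against NTC gave Mb21d1 -0.29 and Aim2 0.26, neither called. The Mb21d1 and Aim2 calls were thus not seen in that second experiment, while Ifi203 (2.70) and Ifi204 (2.39) were called higher there too. All 10 other PYHIN genes rose (median 4.05 against 0.05 for all genes; Pydc3 6.67, Pydc4 6.52, Gm4955 5.29), as did all 11 reference interferon genes (median 4.69; Rsad2 7.04, Ifit3 6.22, Ifit1 6.05). Around the sensors, Usp18, which restrains interferon signalling and acts on STING, rose (5.39), so did the DNase Trex1 (1.87), Samhd1 (0.67), Casp4 (1.42), Casp1 (0.87) and Gsdmd (0.45), and the cGAMP importer Slc46a3 fell (-2.49). Of 8 signalling genes 1 rose (Tax1bp1 0.78), and of 13 other DNA sensors 3 rose, led by Zbp1 (4.64), and Tlr9 fell (-1.24). The Aim2 call ended without NTC macrophage replicate 1 or replicate 3 (adjusted p 0.0768 to 0.0868), fits that leave 1 NTC library assumed to vary like the other groups. Macrophage markers summed to 5166, 5954 and 5759 CPM with sgRNA 1 and 9369, 8054 and 8268 CPM with NTC, monocyte markers (3) to 1424, 1126 and 845 and 482, 447 and 449, and their part in the result was not tested.

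The guide effect was then compared between macrophages and progenitors as an interaction, with 3 of 5 members called, all higher in macrophages, against 13.6% of genes. Ifi204 (log2FC 3.71, SE 0.38, adjusted p 7.08e-05), Ifi203 (log2FC 2.20, SE 0.32, adjusted p 0.000737) and Mb21d1 (log2FC 1.41, SE 0.22, adjusted p 0.00151) carried it, and Aim2 (0.59, adjusted p 0.112) and Tmem173 (-0.38, adjusted p 0.28) were not called. All 10 other PYHIN genes (median 4.41 against 0.08) and all 11 reference interferon genes (median 4.70) were called in the same direction.

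Differentiation itself moved most genes. From progenitor to macrophage with NTC, 4 of 5 members were called (3 higher, 1 lower) against 71.5% of genes: Ifi204 (1.97, adjusted p 6.36e-05), Ifi203 (1.39, adjusted p 0.000242) and Tmem173 (0.49, adjusted p 0.0169) rose and Mb21d1 fell (-1.75, adjusted p 2.11e-06). Tmem173 lost its call without NTC macrophage replicate 1 (adjusted p 0.109), and Aim2 gained one without NTC progenitor replicate 2 (0.0294). With sgRNA 1, 2 of 5 members were called, both higher, against 71.1%, namely Ifi204 (log2FC 5.68, SE 0.25, adjusted p 3.47e-09, no overlap) and Ifi203 (log2FC 3.59, SE 0.21, adjusted p 3.31e-08, no overlap). Mb21d1 was not called there (-0.35, adjusted p 0.055) and was called lower without sgRNA 1 progenitor replicate 2 or macrophage replicate 1 (adjusted p 0.0194 to 0.0384) and with a replicate block (-0.35, adjusted p 0.0419). Read against shares this high, these counts are not a result about the members.

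The sgRNA 2 cells have no NTC group of their own set, so the guide's effect was not tested and the step from progenitor to macrophage is given alone. Mb21d1 read 3.64, 3.81 and 3.65 in progenitors and 3.53, 3.54, 3.69, 3.69 and 3.82 in macrophages, and Aim2 4.47, 4.46 and 4.37 and 4.71, 4.45, 4.38, 4.51 and 4.17, both within their spread. Tmem173 read 4.69, 4.50 and 4.89 and 4.90, 5.27, 5.03, 5.19 and 5.25, with macrophages higher in every library. Ifi203 read 4.88, 5.03 and 4.78 and 7.08, 7.12, 7.00, 7.12 and 7.33, and Ifi204 3.07, 3.32 and 3.22 and 6.26, 6.30, 6.16, 6.19 and 6.42, with no overlap for either gene. Means were, for progenitors and macrophages, 3.70 ± 0.09 and 3.65 ± 0.12 (Mb21d1), 4.69 ± 0.19 and 5.13 ± 0.16 (Tmem173), 4.43 ± 0.06 and 4.44 ± 0.20 (Aim2), 4.90 ± 0.13 and 7.13 ± 0.12 (Ifi203) and 3.20 ± 0.12 and 6.26 ± 0.10 (Ifi204). Ifi205, at or below 3 reads in all 3 progenitors and 1 of 5 macrophages (macrophage values -1.12, -2.36, -0.02, -0.01 and -0.56), was not tested. Of the 5 tested, 3 of 5 were called, all higher, against 81.1% of genes: Ifi204 (3.06, adjusted p 1.47e-10), Ifi203 (2.23, adjusted p 1.45e-09) and Tmem173 (0.44, adjusted p 0.00469; with a replicate block 0.37, adjusted p 0.0728). With a share this high, that count is not a result about the members. Among other PYHIN genes 9 of 10 rose (median 3.45 against -0.03), as did all 11 reference interferon genes (median 6.24).

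The baricitinib series asks whether blocking JAK kinases returns Adar1 KO macrophages to the state of NTC macrophages. Mb21d1 read, in NTC macrophages, 3.17, 3.57 and 3.46 at 0 µM, 3.99, 3.45 and 3.67 at 0.0006 µM, 3.28, 3.46, 3.45 and 3.50 at 0.016 µM, 3.30, 3.54, 3.68 and 3.35 at 0.4 µM and 3.94, 3.86 and 3.87 at 10 µM. In KO macrophages it read 3.32, 3.10 and 2.90 at 0 µM, 3.43, 3.73 and 3.72 at 0.0006 µM, 3.72, 3.65 and 3.85 at 0.016 µM, 3.61, 5.60 and 3.62 at 0.4 µM and 4.53, 5.07, 4.69 and 4.83 at 10 µM, highest at 10 µM apart from replicate 2 at 0.4 µM. By mean KO at 10 µM (4.78 ± 0.23) and 0.4 µM (4.28 ± 1.14) came first, then NTC at 10 µM (3.89 ± 0.05), then within their spread KO at 0.016 (3.74 ± 0.10), NTC at 0.0006 (3.70 ± 0.27), KO at 0.0006 (3.63 ± 0.17) and NTC at 0.4 (3.47 ± 0.17), 0.016 (3.42 ± 0.10) and 0 µM (3.40 ± 0.20), and KO at 0 µM last (3.11 ± 0.21). The place of KO at 0.4 µM rested on replicate 2, without which its Mb21d1 difference from NTC at that dose was 0.15. Tmem173 read 4.89, 5.14 and 4.98 at 0 µM, 5.05, 5.16 and 5.03 at 0.0006 µM, 5.04, 5.29, 5.28 and 5.06 at 0.016 µM, 4.90, 5.19, 5.13 and 5.14 at 0.4 µM and 5.32, 5.44 and 5.13 at 10 µM in NTC macrophages. The KO macrophages read 4.99, 4.40 and 4.98 at 0 µM, 5.06, 5.25 and 4.72 at 0.0006 µM, 5.42, 5.68 and 5.04 at 0.016 µM, 5.32, 5.74 and 5.44 at 0.4 µM and 5.12, 5.00, 5.28 and 5.19 at 10 µM, overlapping the NTC values at each dose but 0.4 µM. Its means formed 1 run in which each neighbour lay within its spread, from KO at 0.4 (5.50 ± 0.22) and 0.016 (5.38 ± 0.32), NTC at 10 (5.30 ± 0.15) and 0.016 (5.17 ± 0.14), KO at 10 (5.15 ± 0.12), NTC at 0.4 (5.09 ± 0.13) and 0.0006 (5.08 ± 0.07), KO at 0.0006 (5.01 ± 0.27) and NTC at 0 (5.00 ± 0.13) to KO at 0 µM (4.79 ± 0.34).

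Aim2 read 4.27, 3.87 and 4.16 at 0 µM, 3.99, 4.17 and 3.81 at 0.0006 µM, 4.13, 4.33, 3.77 and 3.92 at 0.016 µM, 3.90, 4.19, 4.03 and 3.73 at 0.4 µM and 4.42, 3.89 and 3.83 at 10 µM in NTC macrophages. In KO macrophages it read 4.70, 4.07 and 4.30 at 0 µM, 4.38, 4.52 and 4.55 at 0.0006 µM, 4.44, 4.67 and 4.46 at 0.016 µM, 4.05, 6.13 and 3.62 at 0.4 µM and 4.35, 4.81, 4.56 and 4.51 at 10 µM. Every KO mean (0.4 µM 4.60 ± 1.34, 10 µM 4.56 ± 0.19, 0.016 µM 4.52 ± 0.13, 0.0006 µM 4.48 ± 0.09, 0 µM 4.36 ± 0.31) lay above every NTC mean (0 µM 4.10 ± 0.20, 10 µM 4.05 ± 0.32, 0.016 µM 4.04 ± 0.24, 0.0006 µM 3.99 ± 0.18, 0.4 µM 3.96 ± 0.20), with each neighbour within its spread. At 0.4 µM that place rested on KO replicate 2, without which the Aim2 difference of KO from NTC there was -0.13. Ifi203 read 3.22, 3.09 and 3.04 at 0 µM, 2.95, 3.64 and 3.41 at 0.0006 µM, 2.59, 2.72, 2.93 and 2.41 at 0.016 µM, 2.03, 2.26, 2.48 and 2.80 at 0.4 µM and 2.10, 2.84 and 2.02 at 10 µM in NTC macrophages. The KO values were 5.76, 5.78 and 5.91 at 0 µM, 6.10, 6.56 and 6.15 at 0.0006 µM, 6.59, 6.45 and 6.03 at 0.016 µM, 1.94, 8.92 and 2.64 at 0.4 µM and 2.88, 3.51, 3.19 and 2.71 at 10 µM, high at the 3 lower doses and low at 10 µM. KO at 0.016 (6.36 ± 0.29) and 0.0006 µM (6.27 ± 0.25) led, with 0 µM (5.82 ± 0.08) next, KO at 0.4 µM (4.50 ± 3.84) was split by its replicate 2, NTC at 0.0006 (3.33 ± 0.35) and 0 µM (3.12 ± 0.09) and KO at 10 µM (3.08 ± 0.35) lay within their spread, and NTC at 0.016 (2.67 ± 0.22), 0.4 (2.39 ± 0.33) and 10 µM (2.32 ± 0.45) were lowest.

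Ifi204 read 3.31, 3.27 and 2.99 at 0 µM, 3.00, 3.45 and 3.40 at 0.0006 µM, 2.95, 2.65, 3.02 and 2.85 at 0.016 µM, 2.40, 2.25, 2.51 and 2.51 at 0.4 µM and 2.37, 2.40 and 2.20 at 10 µM in NTC macrophages. In KO macrophages it read 5.59, 5.59 and 5.57 at 0 µM, 5.70, 6.25 and 5.88 at 0.0006 µM, 6.20, 6.12 and 5.71 at 0.016 µM, 1.93, 7.82 and 2.00 at 0.4 µM and 2.18, 2.76, 2.29 and 2.38 at 10 µM, so at 0.4 µM replicates 1 and 3 lay below every NTC library and replicate 2 above every other library of the series. The order was KO at 0.016 (6.01 ± 0.26) and 0.0006 µM (5.94 ± 0.28), KO at 0 µM (5.58 ± 0.01), KO at 0.4 µM (3.92 ± 3.38), NTC at 0.0006 (3.28 ± 0.25) and 0 µM (3.19 ± 0.18), NTC at 0.016 µM (2.87 ± 0.16) and, within their spread, NTC at 0.4 (2.42 ± 0.12), KO at 10 (2.40 ± 0.25) and NTC at 10 µM (2.32 ± 0.11). Ifi205 read -1.34, -0.83 and -1.27 at 0 µM, -1.36, -1.06 and -1.13 at 0.0006 µM (1 library of each at or below 3 reads) and -0.39, -1.06, -0.85 and -1.10 at 0.016 µM in NTC macrophages, with -0.66 in replicate 1 at 0.4 µM and the other 3 there and all 3 at 10 µM at or below 3 reads. KO libraries read -0.36, 0.47 and -0.36 at 0 µM, -0.27, -0.46 and 0.41 at 0.0006 µM and 1.47, 1.08 and -0.11 at 0.016 µM, with 2 of 3 at 0.4 µM (replicate 2 at 4.79) and 2 of 4 at 10 µM at or below 3 reads. By mean, KO at 0.016 (0.81 ± 0.82), 0.4 (0.20 ± 3.98), 0 (-0.08 ± 0.48) and 0.0006 µM (-0.10 ± 0.46) lay within their spread, above the NTC groups and KO at 10 µM. The place of KO at 0.4 µM rested on replicate 2, without which its Ifi205 difference from NTC at that dose was -0.08.

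**Figure D3:**
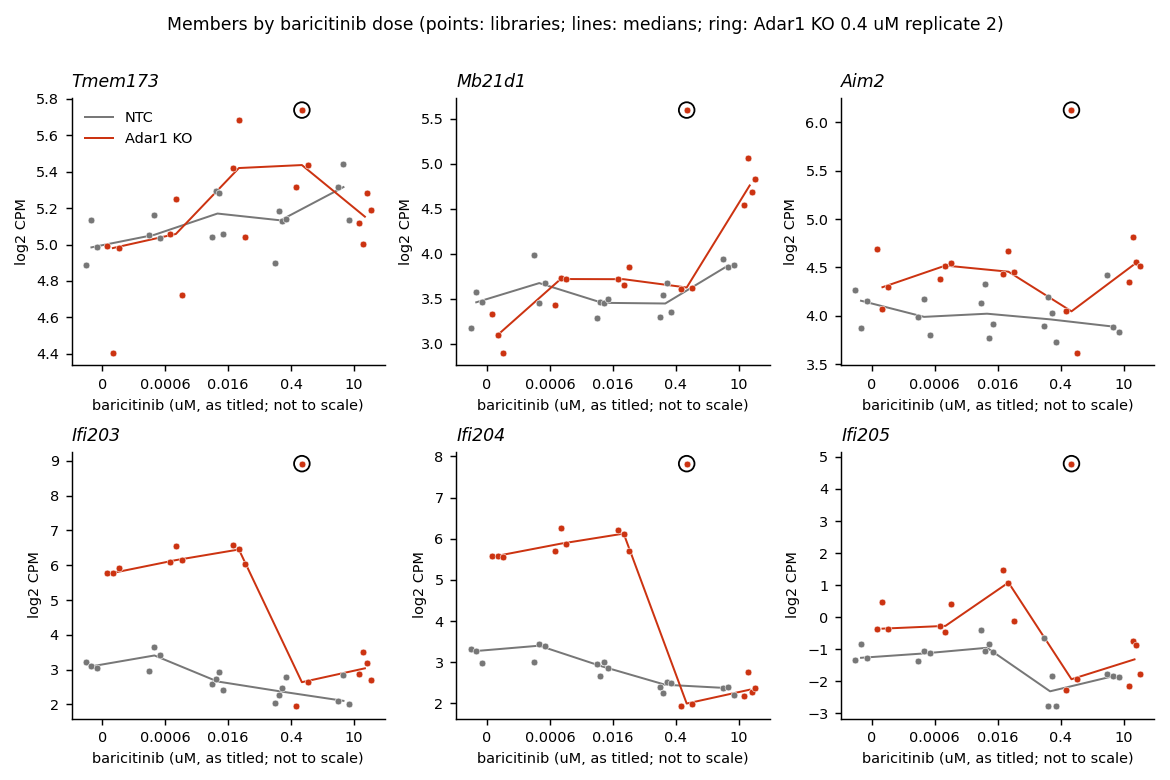
log2 CPM of each member against the baricitinib dose (µM) in NTC and Adar1 KO macrophages, with points for libraries, lines through medians and a ring around replicate 2 of the KO group at 0.4 µM. The KO points of Ifi203 and Ifi204 lie above the NTC points at 0, 0.0006 and 0.016 µM.

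Without drug, Adar1 KO macrophages held more Ifi203 and Ifi204 than NTC macrophages: 2 of 6 members were called, both higher, against 24.9% of genes. With a share this close to 2 of 6, the count is not a result about the members. Ifi203 was 6.49-fold higher (log2FC 2.70, SE 0.88, adjusted p 0.0246, no overlap) and Ifi204 5.24-fold (log2FC 2.39, SE 0.77, adjusted p 0.0224, no overlap). These SEs carry the spread of replicate 2 at 0.4 µM, and without it Ifi203 gave 2.70, adjusted p 9.14e-10, and Ifi204 2.39, adjusted p 7.85e-12, with 2 members and 30.5% of genes called. Mb21d1 (-0.29, adjusted p 0.515), Tmem173 (-0.21, adjusted p 0.379), Aim2 (0.26, adjusted p 0.639) and Ifi205 (1.06, adjusted p 0.485) did not pass. A library series was formed here from the numbers in the library names, and no label states it as a batch. With the library series as a block Ifi203 (2.31, adjusted p 0.0534) and Ifi204 (2.08, adjusted p 0.0512) were not called, nor was Ifi203 without any 1 of the 6 libraries (0.0508 to 0.0636) or Ifi204 without any 1 of NTC replicates 2 and 3 and KO replicates 1 and 2 (0.0524 to 0.0669). Other PYHIN genes rose in 9 of 10 cases (median 3.08 against -0.03; Pydc3 5.95, Pydc4 5.20) and of the reference interferon genes 10 of 11 (median 4.20; Ifit3 7.53), and 10 and 11 without replicate 2 at 0.4 µM.

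At the low doses the same pair was called, at shares of all genes so close to 2 of 6 that the counts are not a result about the members. At 0.0006 µM 2 of 6 members were called, both higher, against 28.6% of genes (Ifi203 2.94, adjusted p 0.0128; Ifi204 2.66, adjusted p 0.00983), and 3 against 33.3% of genes without replicate 2 at 0.4 µM, Aim2 being added (0.49, adjusted p 0.0368). At 0.016 µM 2 of 6 were called, both higher, against 31.8% (Ifi203 3.69, adjusted p 0.000957; Ifi204 3.15, adjusted p 0.00119), and 4 against 36.4% without that library, with Aim2 (0.49, adjusted p 0.0257) and Ifi205 (1.66, adjusted p 0.00609) added. Other PYHIN genes rose in 9 of 10 and 10 of 10 cases (medians 3.34 and 4.24 against medians near 0 for all genes), and reference interferon genes in 9 of 11 and 11 of 11, and without that library in all of both lists at both doses.

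At 0.4 µM the KO group was split. With all libraries limma called 0 of 6 members against 13.3% of genes, with 5 members and 3208 genes at an unadjusted p below 0.05. Without replicate 2, 0 members and 6.50% of genes were called, and Ifi203 (-0.10, adjusted p 0.869), Ifi204 (-0.45, adjusted p 0.14), Mb21d1 (0.15, adjusted p 0.674), Aim2 (-0.13, adjusted p 0.762), Tmem173 (0.29, adjusted p 0.342) and Ifi205 (-0.08, adjusted p 0.954) were not called. Without KO replicate 1, Tmem173 was called higher (adjusted p 0.0401), without KO replicate 3, Aim2 (0.0141), and without either 1 of them Mb21d1 (0.00638 to 0.00837), Ifi203 (0.00343 to 0.0165), Ifi204 (0.0149 to 0.0202) and Ifi205 (0.0123 to 0.0235). With all libraries 8 of 10 other PYHIN genes and 9 of 11 reference interferon genes were called higher (medians 2.79 and 3.45), and without replicate 2 only 2 and 3 (medians 0.51 and 0.78), so those calls rested on that library. S100a8-led neutrophil markers summed to 245, 76.3 and 325 CPM in replicates 1, 2 and 3 of this KO group (S100a9 and Ltf at 0) and 59.8, 53.6, 52.9 and 94 CPM in the NTC group, and their part in the result was not tested.

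At 10 µM the 1 member called was the cGAS gene (1 of 6, higher), against 44.5% of genes. That share is above 1 of 6, so the count is not a result about the members. Mb21d1 was 1.86-fold higher (log2FC 0.89, SE 0.28, adjusted p 0.01, no overlap). Ifi204 (0.08, adjusted p 0.946; 95% interval -1.39 to 1.55) and Ifi203 (0.76, adjusted p 0.485) were not called, and without replicate 2 at 0.4 µM 3 members were, against 49.7% of genes and so no more than that share, Aim2 (0.51, adjusted p 0.0141) and Ifi203 (0.76, adjusted p 0.00682) being added. With all libraries limma called none of 10 other PYHIN genes (median 0.18 against a median near 0 for all genes) and none of 11 reference interferon genes (median -0.03), and without that library 3 other PYHIN genes higher and, of the interferon genes, 1 higher and 1 lower. Around STING, KO cells had 9 of 14 trafficking genes lower (Trim32 -1.81, Sec24c -1.79, Stim1 -1.06) and 1 higher, and 3 of 8 signalling genes lower (Ikbke -1.93, Rela -1.49, Irf3 -1.45) and 1 higher (Tax1bp1 0.72), or without that library 2 trafficking genes higher and 4 signalling genes lower. Macrophage markers summed to 3349, 2944, 2865 and 3007 CPM in KO and 4313, 4574 and 4622 CPM in NTC at 10 µM, against 5367, 5185 and 5326 and 5628, 5648 and 5753 at 0 µM, and their part in the result was not tested. Neuron markers summed to less than 1 CPM in every baricitinib library.

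Within KO cells, dose was compared with 0 µM. At 0.0006 µM limma called 0 of 6 members against 2.31% of genes, with 0 members and 1829 genes at an unadjusted p below 0.05. At 0.016 µM 1 of 6 was called, higher, against 5.98%: Tmem173 (log2FC 0.59, SE 0.16, adjusted p 0.0305, no overlap), a call that ended without any 1 of KO 0 µM replicates 1 and 2 and KO 0.016 µM replicates 1 and 2 (adjusted p 0.0774 to 0.228). Mb21d1 was added without replicate 2 at 0.4 µM (0.63, adjusted p 0.0111; 2 members, 9.84% of genes). At 0.4 µM 2 of 6 were called, both higher, against 26.0%: Tmem173 (log2FC 0.71, SE 0.16, adjusted p 0.00206, no overlap) and Mb21d1 (log2FC 1.17, SE 0.30, adjusted p 0.0044, no overlap). As that share is close to 2 of 6, the count is not a result about the members. Without replicate 2 that count became 6 with 32.4% of genes, with Ifi203 (-3.53, adjusted p 6.87e-11), Ifi204 (-3.62, adjusted p 5.25e-14), Ifi205 (-2.02, adjusted p 0.00635) and Aim2 (-0.52, adjusted p 0.0499) lower and Tmem173 (0.58, adjusted p 0.0107) and Mb21d1 (0.51, adjusted p 0.0245) higher. With all libraries none of 10 other PYHIN genes and 4 of 11 reference interferon genes fell at 0.4 µM, and without replicate 2 all of both lists.

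At 10 µM 4 of 6 members of KO cells were called, Mb21d1 and Tmem173 higher and Ifi203 and Ifi204 lower, against 65.0% of genes, a share at which the count is not a result about the members. Ifi204 fell (log2FC -3.18, SE 0.72, adjusted p 0.000343, no overlap) and Ifi203 fell (log2FC -2.74, SE 0.82, adjusted p 0.00482, no overlap), while Mb21d1 rose 3.19-fold (log2FC 1.67, SE 0.28, adjusted p 6.71e-06, no overlap) and Tmem173 rose (log2FC 0.36, SE 0.15, adjusted p 0.0425, no overlap). Tmem173 lost its call without any 1 of KO 0 µM replicate 2 and KO 10 µM replicates 1, 3 and 4 (adjusted p 0.0568 to 0.381) and with no filter on low values (0.36, adjusted p 0.0636), and Ifi205 gained one without replicate 2 at 0.4 µM (-1.30, adjusted p 0.016; 5 members, 68.0% of genes). Aim2 was not called (0.20, adjusted p 0.595). All 10 other PYHIN genes fell (median -3.50 against 0.05; Pydc3 -7.15, Pydc4 -5.15, Mnda -4.10), as did 10 of 11 reference interferon genes (median -5.26; Ifit3 -9.71, Irf7 -9.47), and 11 without replicate 2 at 0.4 µM. Of the trafficking genes 9 of 14 fell (Usp18 -9.39), of the signalling genes 3 of 8 fell (Ikbke -3.49, Rela -2.54) and 2 rose (Map3k7 1.05, Nfkb1 0.93), of the removal genes 3 of 8 fell (Dnase2a -2.33, Trex1 -2.25) and 4 rose, and of the cGAMP transport genes 2 of 6 rose (Lrrc8c 1.62) and 2 fell.

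In NTC macrophages limma called 0 of 6 members at each dose, against 0% of genes at 0.0006 µM, 0% at 0.016 µM, 0.00882% at 0.4 µM and 13.6% at 10 µM, with 0 members and 354, 441, 602 and 3192 genes at an unadjusted p below 0.05. Without the KO replicate that widened the pooled spread, Ifi204 fell at 0.4 µM (-0.77, adjusted p 0.0111; 1 member, 0.619% of genes). At 10 µM 3 members were then called against 20.5%: Ifi204 (-0.87, adjusted p 0.000494) and Ifi203 (-0.80, adjusted p 0.0191) fell and Mb21d1 rose (0.49, adjusted p 0.0254). With all libraries none of 10 other PYHIN genes was called at 10 µM (median -0.84 against -0.01), 1 of 11 reference interferon genes fell (Oas1a -2.45), and Usp18 (-4.46) and Zbp1 (-3.23) fell. Without that KO replicate 4 of 10 other PYHIN genes (median -0.84) and 9 of 11 reference interferon genes (median -1.15) fell at 10 µM, and 3 and 5 at 0.4 µM, so the lack of calls at these doses rested on that library.

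Whether the KO effect itself changed with dose was tested as an interaction against 0 µM. At 0.4 µM 0 of 6 members were called by limma against 4.61% of genes, with 2 members and 2208 genes at an unadjusted p below 0.05. Without KO replicate 2 at 0.4 µM 2 were called against 13.4%, as the KO effect was lower than at 0 µM for Ifi203 (-2.80, adjusted p 2.25e-06) and Ifi204 (-2.84, adjusted p 4.99e-09), while Mb21d1 was called without KO replicate 1 or replicate 3 of that group (adjusted p 0.0346 to 0.0406) and Tmem173 with the library series as a block (0.70, adjusted p 0.0469). At 10 µM 1 of 6 was called, Mb21d1, whose KO difference went from -0.29, not called, to 0.89 (log2FC 1.19, SE 0.41, adjusted p 0.0221), against 38.8% of genes. That share too is above 1 of 6, so the count is not a result about the members. The Mb21d1 call ended without NTC 0 µM replicate 2 or KO 0 µM replicate 3 (adjusted p 0.0515 to 0.0524). Ifi204 (-2.31, adjusted p 0.0829) and Ifi203 (-1.94, adjusted p 0.209) were not called with all libraries and were called without KO replicate 2 at 0.4 µM (Ifi204 -2.31, adjusted p 1.08e-08; Ifi203 -1.94, adjusted p 3.05e-05; 3 members, 43.9% of genes). Of the other PYHIN genes 2 of 10 were called lower (Pydc3 -5.97, Pydc4 -5.26) and of the reference interferon genes 8 of 11 (median -4.11), and without that replicate all of both lists. At 0.4 µM none of either list was called with all libraries, and 10 and 10 were lower without it.

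**Figure D4:**
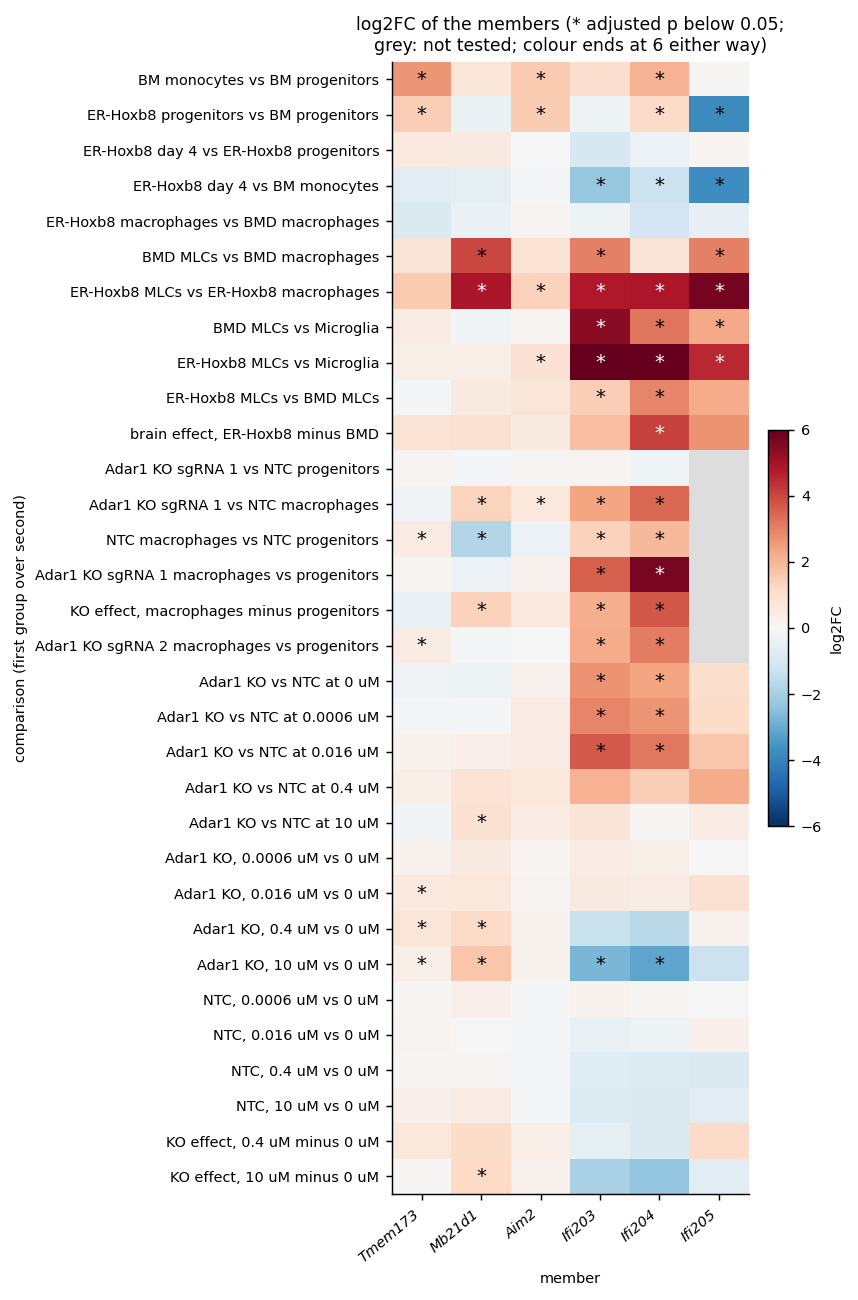
Heat map of the log2FC of the 6 members in the 32 comparisons, with colour ends at 6, a star for an adjusted p below 0.05 and grey for a member not tested. The largest value is that of Ifi203 in ER-Hoxb8 MLCs against Microglia, at 6.90.

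Across libraries, the genes closest to each member were named by Pearson's r over all genes tested, as a description of likeness between libraries that share groups, treatment and processing. Over the 33 baricitinib libraries Ifi203 was closest to Rnf213 (0.99), Trim30a (0.98), Sp100 (0.98), Ifi204 (0.98) and Phf11b (0.98), and Ifi204 to Trim30a (0.99), Ube2l6 (0.99), Irgm1 (0.99), Phf11b (0.98) and Ifi203 (0.98). Ifi205 was closest to Cd40 (0.89), Parp12 (0.89), Samd9l (0.89), 9930111J21Rik2 (0.88) and Fcgr1 (0.88). The cGAS gene Mb21d1 had other neighbours, Spred1 (0.91), Stk38l (0.90), Isoc1 (0.90), Plekhf2 (0.89) and Dpy19l1 (0.88), and Tmem173 and Aim2 had looser ones, Dusp16 (0.78), Dapp1 (0.77), Nono (0.73), Arf2 (0.72) and Cd72 (0.70) and Stxbp3a (0.86), Rnf19b (0.86), Nt5c3 (0.86), 2810474O19Rik (0.85) and Sepw1 (0.85). Without KO replicate 2 at 0.4 µM the r of these listed genes was 0.98 to 0.99 (Ifi203), 0.98 to 0.99 (Ifi204), 0.77 to 0.83 (Ifi205), 0.82 to 0.89 (Mb21d1), 0.61 to 0.73 (Tmem173) and 0.63 to 0.71 (Aim2). Over the 27 macrophage and brain libraries Ifi203 was closest to Mndal (0.99), Ifi202b (0.96), Gm16340 (0.96), Mnda (0.96) and Klra2 (0.94), and Ifi204 to H2-Q6 (0.95), a transcript named for a BAC clone (0.94), Mndal (0.94), Mnda (0.94) and Gm16340 (0.94). Of these 10 entries 7 are genes of the PYHIN cluster, with which reads can be shared, and Mndal, Mnda and Gm16340 stand in both lists. Ifi205 was closest to Ciita (0.90), Cd74 (0.88), Ms4a4b (0.88), Ddx60 (0.87) and Pydc3 (0.87), a list with the antigen presentation genes Ciita and Cd74. There Mb21d1 was closest to Akap13 (0.94), Cd86 (0.94), Sag (0.93), Srsf9 (0.93) and Zfp131 (0.93), Tmem173 to Slc7a7 (0.94), Exd2 (0.90), Trim34b (0.90), Nudt22 (0.89) and Dnajb1 (0.89), and Aim2 to mt-Nd4 (0.92), mt-Nd5 (0.86), Lacc1 (0.86), mt-Cytb (0.85) and Rapgef2 (0.83), with mitochondrially encoded genes among the last. Without Microglia replicate 8 the r of Tmem173 was 0.85 with Slc7a7 and 0.56 to 0.61 with its other listed genes, whose place rested on that library. The r of the listed genes was then 0.80 to 0.91 for Aim2, 0.92 to 0.95 for Mb21d1, 0.94 to 0.98 for Ifi203, 0.94 to 0.96 for Ifi204 and 0.87 to 0.89 for Ifi205. Among members, Ifi203 and Ifi204 had r 0.93 (Spearman's rho 0.93) over the 27 and 0.98 (Spearman's rho 0.88) over the 33 libraries, and Tmem173 and Ifi204 0.07 (Spearman's rho -0.23) and 0.03 (Spearman's rho -0.19), which became -0.16 and -0.19 without those libraries.

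**Figure D5:**
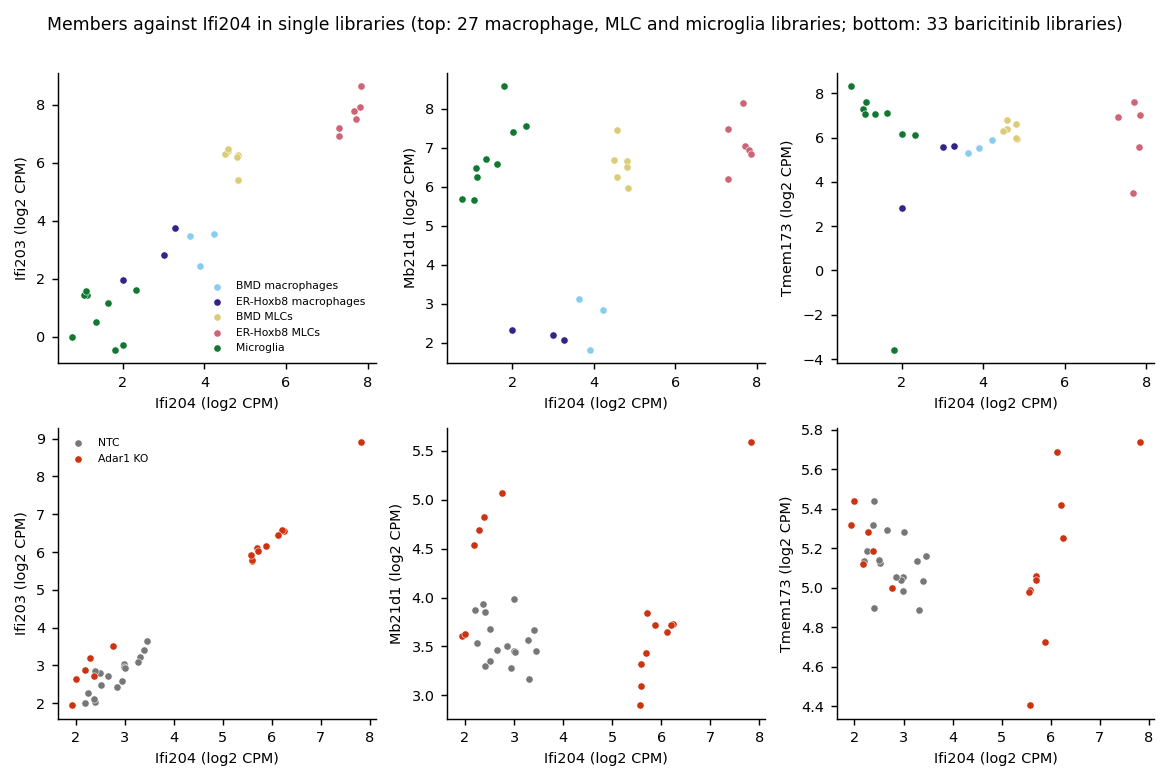
log2 CPM of Ifi203, Mb21d1 and Tmem173 against Ifi204, with 1 point for each of the 27 macrophage and brain libraries (top) and 33 baricitinib libraries (bottom). Ifi203 follows Ifi204 over both, at r 0.93 and 0.98, and the points come from groups that differ in treatment and cell type.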

How the data were processed

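Bulk RNA-seq of 92 mouse libraries in 25 groups was used. Per the labels, the authors trimmed reads with fastp, quantified them with kallisto 0.46.0 (GRCm39), used tximport for gene totals, and deposited log2 CPM scaled by the TMM method of edgeR. Of 29957 entries 29956 carry a gene name, and the unnamed one holds 0.00226 to 0.0582% of a library. Depth, 6.16 to 52.4 M reads, came from the spacing of values at a prior count of 2.

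Libraries were grouped by label and compared within sets that share a lowest value, which left out NTC macrophage replicate 2. Genes above log2 CPM 0 in at least 3 libraries (6 in the macrophage and brain set) were tested with limma 3.58.1 (trend, moderated t, Benjamini-Hochberg) in R 4.3.3: 12134, 12647, 11119, 10776 and 11339 genes. Tables and figures used Python 3.11.15, numpy 2.4.6, pandas 2.3.3 and matplotlib 3.10.9, and the fits were tested on simulated data. The members and the 21 gene lists were chosen with earlier results of these data known, and other genes are named from those lists or by correlation. Alternatives were a log2FC limit of 2, log2(CPM + 1), no filter, centring, replicate or library series blocks, single series, and each library left out. Pooling the spread without Microglia replicate 8 or KO replicate 2 at 0.4 µM, and correlating and counting lists without them, was chosen after seeing the data. Results of 2 of the lists are not reported here.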

Additional observations from a re-analysis of the deposited data

Results flagged for a closer look

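In groups of 4 to 10 libraries, 4 single values lay apart from the rest of their group by Dixon's 95% limit, among 42 groups of values tested. Chance gives such a value in about 1 in 20 groups. Ifi203 read 5.41 in BMD MLC replicate 1 and 6.21 to 6.47 in the other libraries of that group. Ifi205 read 7.66 in ER-Hoxb8 MLC replicate 6, with 1.39 to 3.25 in the others. Microglia replicate 8 held the other pair: Tmem173 at -3.57, at or below 3 reads, against 6.14 to 8.33, and Aim2 at 6.70 against 4.46 to 5.11. The cause was not tested.

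In 5 cases an effect differed between groups by a limma interaction test. The step of Ifi204 from macrophage to MLC was higher in ER-Hoxb8 than in BMD cells, by 4.08 (3.23% of genes called). The effect of sgRNA 1 was higher in macrophages than in progenitors for Mb21d1 (1.41), Ifi203 (2.20) and Ifi204 (3.71), with 13.6% of genes called. For Mb21d1, the KO macrophages of the baricitinib set at 0 µM differed from NTC by -0.29, not called. The effect of Adar1 KO on Mb21d1 was higher at 10 µM than at 0 µM, by 1.19, with 38.8% of genes called, and was not called without NTC 0 µM replicate 2 or KO 0 µM replicate 3 (adjusted p 0.0515 to 0.0524). Without KO replicate 2 at 0.4 µM in the spread, a choice made after seeing the data, Ifi204 (-2.31, adjusted p 1.08e-08) and Ifi203 (-1.94, adjusted p 3.05e-05) were called lower in that test.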

How the results depend on the processing

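With a log2FC limit of 2 added, members called went from 4 to 1 for ER-Hoxb8 progenitors against BM progenitors, 2 to 1 for ER-Hoxb8 against BMD MLCs, 4 to 2 for sgRNA 1 against NTC macrophages, 4 to 0 from NTC progenitors to macrophages, 1 to 0 for KO against NTC at 10 µM, and, in KO cells against 0 µM, 1 to 0 at 0.016 µM, 2 to 0 at 0.4 µM and 4 to 2 at 10 µM. The KO effect at 10 µM against 0 µM went from 1 to 0. That follows from the limit itself, since these limma counts drop members with smaller differences.

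ER-Hoxb8 against BMD MLCs went from 2 to 4 with a replicate block, without the YSWT libraries and without Microglia replicate 8 in the spread (21.1% of genes called, from 15.1%), and to 1 with GFPHox alone. With the library series as a block KO against NTC at 0 µM went from 2 to 0 and the KO effect at 0.4 µM from 0 to 1. Without KO replicate 2 at 0.4 µM in the spread, a choice made after seeing the data, KO against NTC went from 2 to 4 at 0.016 µM (36.4% of genes called, from 31.8%) and 1 to 3 at 10 µM (49.7%, from 44.5%, so 3 of 6 is no more than that share), KO at 0.016 µM against 0 µM from 1 to 2 (9.84%, from 5.98%), NTC at 0.4 and 10 µM against 0 µM from 0 to 1 (0.619%, from 0.00882%) and 0 to 3 (20.5%, from 13.6%), and the KO effect at 10 µM from 1 to 3 (43.9%, from 38.8%). The cause was not tested.

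Leaving out each library in turn gave 2 to 4 members for ER-Hoxb8 against BM progenitors, 1 to 3 for day 4 cells against BM monocytes, 2 for BM monocytes against BM progenitors, 0 to 1 for KO against NTC at 0 µM and 0 to 5 at 0.4 µM, 0 to 1 for KO at 0.016 µM and 2 to 6 at 0.4 µM against 0 µM, and 0 to 2 and 0 to 1 for the KO effect at 0.4 and 10 µM. In KO cells at 0.4 µM against 0 µM, Aim2 (0.24) ranged from -0.52 to 0.73 and Ifi205 (0.28) from -2.02 to 1.51, with the lowest value of each, a reversal, without KO replicate 2 at 0.4 µM. Of 1513 member differences with a library left out, 1438 kept their side of the threshold (64 of them, called in neither fit, changed sign), 51 lost a call, 22 gained one and 2 reversed.

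Counts of members called stayed within 1.5 times in 32 of 32 comparisons on log2(CPM + 1), with no filter and with centring. Of 186 member differences 183, 184 and 185 kept their side of the threshold, and 179 with a replicate block. Among these, with no call in either fit, 3 changed sign on log2(CPM + 1), 0 with no filter, 2 with centring and 2 with a replicate block.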
